A study of Homo sapiens with 18 samples.

Results

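Aminoacyl-tRNA synthetases, the enzymes that load each transfer RNA with its amino acid, were read in RNA-seq of NCI-H211, an established human cell line from a small cell lung cancer with POU2F3 and a tuft-cell-like profile. The members were chosen by name: 20 cytosolic enzymes, under their older symbols (AARS, CARS and so on), and 16 mitochondrial enzymes, whose symbols end in 2. All 36 were present among the 19744 named genes of the table, and all 36 were among the 13066 genes that reached a mean of 1 TPM, a length-scaled share of a library's transcripts, and were tested. Every cell carried Cas9 and 1 of 3 stably expressed constructs: an empty vector, a wild-type POU2F3 cDNA that the guide does not cut (WT), or the same resistant cDNA with the L191A change (L191A). Each line was then infected with lentivirus for a guide against the endogenous POU2F3 gene (sgPOU2F3) or for sgRosa, a control guide. On day 5 the cells were lysed for RNA, in 6 groups with 3 libraries each: empty vector, WT and L191A, each under sgRosa and under sgPOU2F3. The 3 libraries of a group were separate infections of 1 stable line, so p-values measure the spread between these infections and not between independently made lines.

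A cytosolic synthetase serves protein synthesis on cytosolic ribosomes, and a mitochondrial one serves the separate ribosomes of the mitochondrion. Most are encoded by different nuclear genes, while GARS and KARS each give both a cytosolic and a mitochondrial enzyme. Many cytosolic synthetase genes are known targets of ATF4, the transcription factor of the integrated stress and amino acid response, which binds composite C/EBP-ATF elements, often written TGATGNAA, with a C/EBP partner. The cytosolic enzymes were therefore described in 2 classes: 13 commonly named as ATF4 targets (AARS, CARS, EPRS, GARS, IARS, LARS, MARS, NARS, SARS, TARS, VARS, WARS and YARS) and 7 others (DARS, FARSA, FARSB, HARS, KARS, QARS and RARS).

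The TGATGNAA motif was looked for on both strands of RefSeq promoter windows (GRCh38.p14), which run from 250 bases before to 50 bases after an annotated start. Of the 30 members with a window, 8 held it. They were 7 of 10 cytosolic enzymes named as ATF4 targets, 0 of 6 other cytosolic enzymes and 1 of 14 mitochondrial enzymes, against 3.60% of 15842 protein-coding genes. The named ATF4 targets were classed by a factor that binds this motif. Their share of matches may therefore not be independent of the classing. The stretch around each match is shown because these letters are what the 8 windows share, 5′ to 3′ along the gene's strand, with the match in capitals; TTGCATCA is TGATGCAA read from the opposite strand. The stretches lie at chr16:70289660-70289719 (minus strand), chr11:3057407-3057436 (minus), chr7:30594834-30594863 (plus), chr9:92293698-92293757 (minus), chr12:57488053-57488082 (plus), chr18:57621804-57621833 (minus), chr5:33440956-33440985 (plus) and, for YARS2, chr12:32756061-32756120 (minus).
AARS: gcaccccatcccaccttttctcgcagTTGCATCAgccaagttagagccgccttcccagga
CARS: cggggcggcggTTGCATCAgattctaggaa
GARS: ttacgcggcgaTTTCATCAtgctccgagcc
IARS: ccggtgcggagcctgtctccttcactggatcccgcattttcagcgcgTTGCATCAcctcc
MARS: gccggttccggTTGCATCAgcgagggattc
NARS: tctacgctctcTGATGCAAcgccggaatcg
TARS: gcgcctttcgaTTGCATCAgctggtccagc
YARS2: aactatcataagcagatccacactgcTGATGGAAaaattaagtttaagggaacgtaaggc
The first base of the match lay 187 bases before the start in AARS and 197 before it in YARS2. It lay 2 to 33 bases before an annotated start in CARS, GARS, IARS and MARS, and 15 and 3 bases after it in NARS and TARS. In 6 of the 7 cytosolic stretches the match read TGATGCAA, and in GARS it read TGATGAAA. A match is a run of letters in the reference and not a measured binding site. DARS, LARS, VARS, YARS, AARS2 and VARS2 were not analysed for it.

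In 2 libraries the transcript profile was skewed. In L191A sgRosa replicate 1 the median tested gene was at 7.06 TPM and 86 ribosomal protein genes took 37.56% of TPM, and in WT sgPOU2F3 replicate 1 these were 12.74 TPM and 32.44%, against 18.6 to 26.44 TPM and 15.57% to 26.16% in the other 16 libraries. Results are therefore given in all 18 libraries and in the 16 without this pair (the 16 libraries). Read depth is unknown, since each library sums to the same TPM total. In empty-vector cells POU2F3 mRNA read 729 ± 108 TPM (SD, n = 3) with sgRosa and 281 ± 33.1 TPM with sgPOU2F3. It reads endogenous and cDNA transcripts together, and a cut gene can still be transcribed, so it checks the labels only in part. Of 13 tuft markers 12 reached 1 TPM in every group, and their summed level in empty-vector cells was 4960 to 5730 TPM under sgRosa and 1950 to 2180 TPM under sgPOU2F3. In L191A cells it was 1290 to 3530 TPM and 1910 to 1960 TPM, and in WT cells 4880 to 5140 TPM and 3690 to 4080 TPM. POU2F3 itself is 1 of these 13 markers, so the sums in the WT and L191A lines also hold cDNA reads. Its mean was 1790 and 1150 TPM in WT cells and 675 and 646 TPM in L191A cells, under sgRosa and sgPOU2F3. A sum without it was not taken. The sum of 10 mesenchymal markers was 19.5 to 24.7 TPM and 262 to 325 TPM in empty-vector cells, 43 to 96.6 TPM and 263 to 274 TPM in L191A cells, and 42.6 to 49.7 TPM and 53.2 to 85.9 TPM in WT cells. The sum of 10 neuroendocrine markers, of which 4 or 5 reached 1 TPM in a group, was 171 to 223 TPM and 82.7 to 117 TPM in empty-vector cells, 206 to 237 TPM and 93.8 to 170 TPM in WT cells, and 52.5 to 139 TPM and 104 to 107 TPM in L191A cells. Of 8 lymphoid and myeloid markers 3 were at 0 in every group, and their sum was at most 21.3 TPM. The part of these shifts in the synthetase results was not tested. In bulk RNA fewer cells of a kind and less RNA per cell cannot be told apart.

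Group means of synthetase mRNA ran from 9.47 to 423 TPM in the sgRosa cells of the empty-vector line. The highest was GARS, the glycine enzyme, at 423 ± 11.9 TPM (SD, n = 3), next to NARS, the asparagine enzyme, at 402 ± 13.4 TPM, which met it at 410 TPM (434, 410 and 424 TPM against 409, 410 and 387 TPM). EPRS, which joins the glutamate and proline enzymes in 1 protein, followed at 257 ± 5.78 TPM, then AARS (alanine) at 234 ± 7.24 TPM and KARS (lysine) at 231 ± 3.92 TPM, which overlapped each other. The mitochondrial enzymes filled most of the lower ranks, down to LARS2 (leucine) at 9.47 ± 0.823 TPM and PARS2 (proline) at 10.8 ± 0.517 TPM. The highest of them was IARS2, the mitochondrial isoleucine enzyme, at 177 ± 5.26 TPM, which ranked 9 of 36 and stood above cytosolic IARS at 99.5 ± 3.17 TPM. NARS2 (asparagine) at 83.6 TPM ranked 13, and RARS2 (arginine), HARS2 (histidine) and TARS2 (threonine) at 54.1, 53.2 and 49.1 TPM also stood above the lowest cytosolic enzymes. WARS (tryptophan) at 37.1 ± 0.877 TPM and DARS (aspartate) at 46.0 ± 4.0 TPM were the lowest cytosolic enzymes. Summed over genes, the cytosolic enzymes held 3170 ± 72.3 TPM and the mitochondrial ones 681 ± 21.1 TPM, a ratio of 4.66 ± 0.240.

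The first comparison asked what loss of POU2F3 did in cells with no rescue construct. Under sgPOU2F3, CARS, AARS and SARS fell and FARSA and YARS2 rose in the 18-library test. These 5 of 36 members compare with 17.4% of all 13066 genes called in that contrast (7.94% higher, 9.51% lower), and 1 of the 5 was mitochondrial. The split of 2 higher and 3 lower moved with the scaling: median-ratio scaling gave 6 higher and 1 lower, quantile normalization 6 and 7, and removal of the trend with transcript length 0 and 2. CARS, the cysteine enzyme (chromosome 11, 3000922 to 3057613, minus strand, GRCh38), was at 84.3, 83.5 and 78.5 TPM under sgRosa and at 41.8, 45.1 and 56.9 TPM under sgPOU2F3. The groups were well apart, and the difference was −0.77 ± 0.16 (SE) on the log2(TPM + 1) scale, 0.585-fold (limma adjusted p = 0.00256). AARS (chromosome 16, 70252295 to 70289543, minus strand) went from 240, 226 and 235 TPM to 124, 143 and 159 TPM. Every sgPOU2F3 library lay below every control, a difference of −0.72 ± 0.21 (limma adjusted p = 0.0274). SARS, the serine enzyme (chromosome 1, 109213918 to 109238169, plus strand), went from 226, 235 and 210 TPM to 164, 150 and 179 TPM, again without overlap, a difference of −0.44 ± 0.14 (limma adjusted p = 0.0352). Its promoter window held no TGATGNAA match, while those of CARS and AARS did. Without any single empty-vector library SARS missed the threshold (adjusted p 0.0504 to 0.121), and so did AARS except without sgPOU2F3 replicate 3 (0.0588 to 0.121), while CARS passed in every such fit. CARS missed it with median-ratio scaling (−0.64, 0.0724), as SARS did (−0.30, 0.414).

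The members that rose were FARSA and YARS2. FARSA, the catalytic subunit of the phenylalanine enzyme (chromosome 19, 12922479 to 12934037, minus strand), was at 84.1, 78.7 and 71.6 TPM under sgRosa and 123, 127 and 116 TPM under sgPOU2F3. The lowest sgPOU2F3 library stood well above the highest control, and the difference was 0.64 ± 0.15, 1.56-fold (limma adjusted p = 0.00889). It passed without each single library and missed the threshold once the trend with transcript length was removed (0.56, limma adjusted p = 0.130). YARS2, the mitochondrial tyrosine enzyme (chromosome 12, 32727490 to 32755902, minus strand), went from 36, 37.5 and 37.4 TPM to 52.4, 48.0 and 48.6 TPM, a difference of 0.41 ± 0.14 that passed narrowly (limma adjusted p = 0.0492) and was lost without any 1 of the 6 libraries (0.0861 to 0.173).

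Where the spread shared by all groups was smaller, in the 16 libraries, the same differences in empty-vector cells passed for 20 of 36 members, against 51.7% of all genes (19.1% higher, 32.7% lower). The classes were split. Among the 13 named ATF4 targets 8 fell (AARS, CARS, EPRS, GARS, IARS, LARS, SARS and YARS), 1 rose (VARS) and 4 were not called, and 12 of 13 differences were below 0 with a median of −0.30. Among the 7 other cytosolic enzymes 5 rose (FARSA, FARSB, HARS, KARS and RARS) and 2 fell (DARS and QARS), with a median of 0.33. Of the 16 mitochondrial enzymes 4 rose (LARS2, MARS2, SARS2 and YARS2), none fell, and the median was 0.08. The median of all genes was −0.13. Median-ratio scaling, which brings that median to 0.00, moved the class medians to −0.16, 0.47 and 0.21, so their order was kept, and quantile normalization gave −0.39, 0.28 and 0.14. The 2 groups did not overlap for 17 cytosolic and 4 mitochondrial members, and for 51.9% of all genes.

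**Figure D1:**
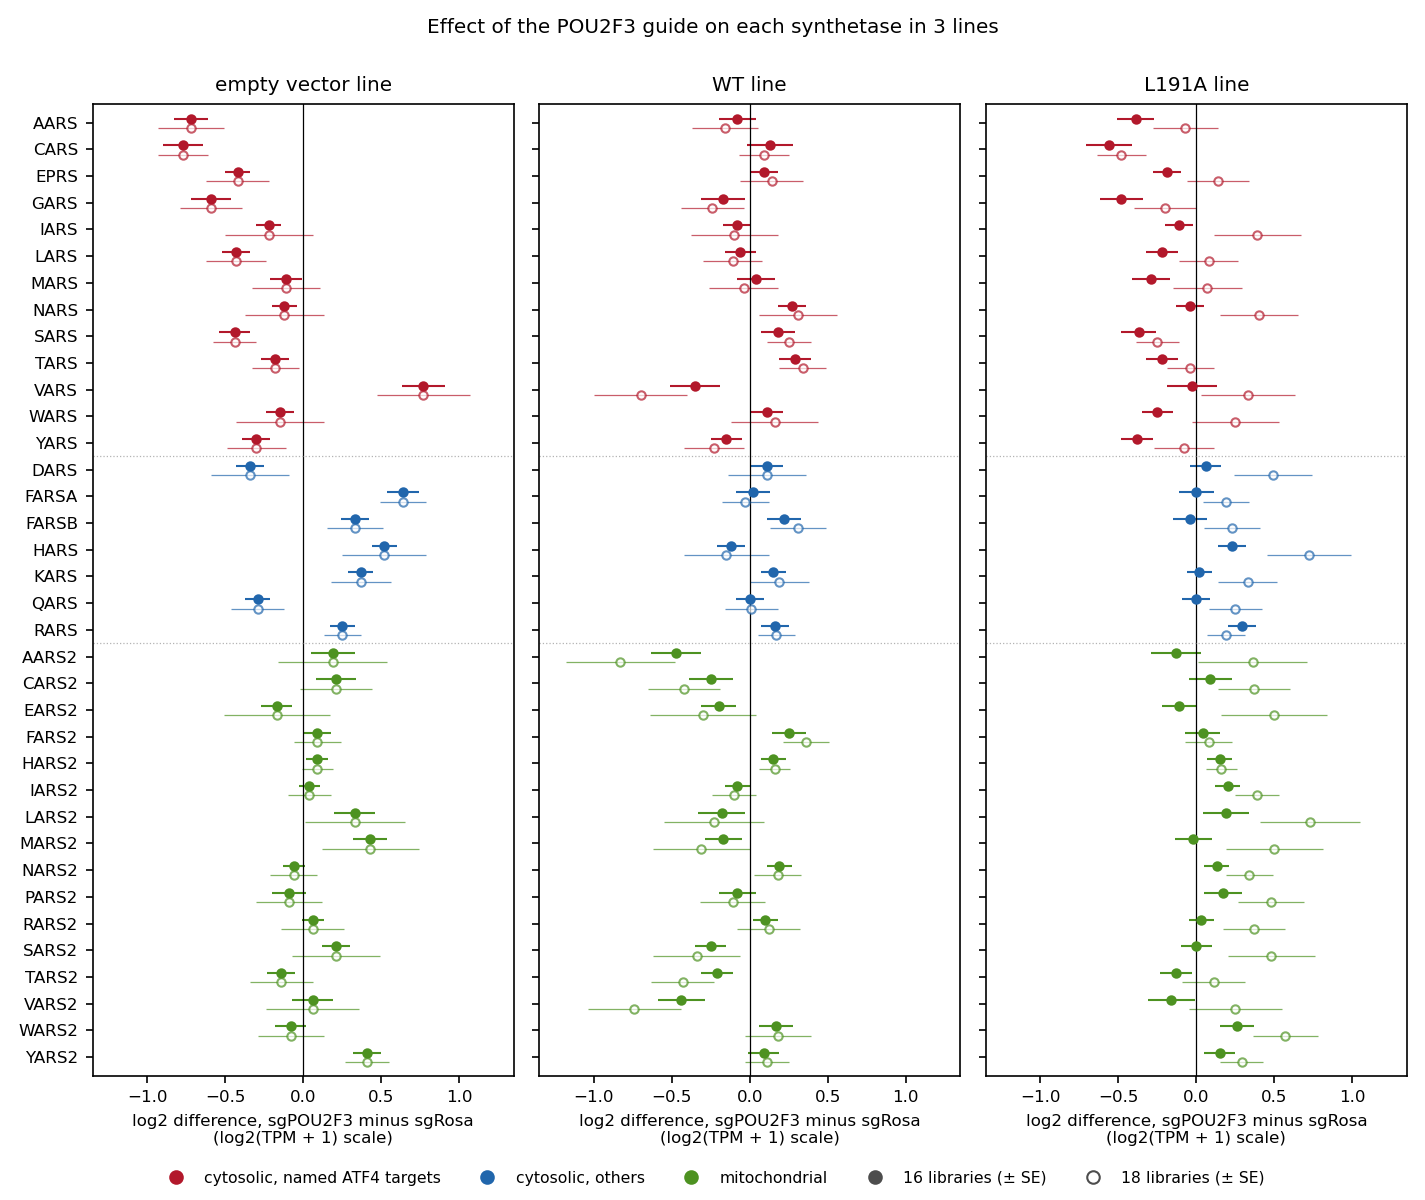
Log2 difference of each synthetase, sgPOU2F3 minus sgRosa, in the empty-vector, WT and L191A lines (x axis, log2(TPM + 1) scale; bars are ± 1 SE), with filled points from the 16 libraries and open points from all 18. In the empty-vector panel 12 of 13 named ATF4 targets lie left of 0 and VARS at 0.77, while FARSA, FARSB, HARS, KARS and RARS lie to its right.

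Among the named ATF4 targets called only in the 16 libraries, GARS had the largest fall. GARS (chromosome 7, 30594681 to 30634033, plus strand) went from 434, 410 and 424 TPM to 252, 273 and 322 TPM, with no overlap. The difference was −0.59 ± 0.13 (limma adjusted p = 0.00119 in the 16 libraries and 0.0563 in all 18). EPRS went from 259, 261 and 250 TPM to 182, 184 and 210 TPM, a difference of −0.42 ± 0.08 (limma adjusted p = 0.000581, and 0.172 in all 18). LARS, the cytosolic leucine enzyme, was also lower in every library, at 73.6, 70.8 and 81.1 TPM against 50.9, 56.0 and 59.8 TPM (−0.43 ± 0.09, limma adjusted p = 0.000639, and 0.138 in all 18). YARS (tyrosine) and IARS differed less, by −0.30 and −0.22. The remaining members of the class lay closer to 0: MARS (methionine) −0.11, NARS −0.12, WARS −0.15 and TARS (threonine) −0.18, none of them called.

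VARS, the valine enzyme, went the other way from its class. It was at 87.5, 74.2 and 86.7 TPM under sgRosa and at 119, 181 and 131 TPM under sgPOU2F3, a difference of 0.77 ± 0.14 in the 16 libraries (limma adjusted p = 0.000353, and 0.0964 in all 18). Much of its spread came from sgPOU2F3 replicate 2, which was also the highest library of its group for VARS2 at 50.1 TPM and AARS2 at 30.8 TPM. That library had the lowest ribosomal protein share of all, 15.57%, and the part of this in the VARS value was not tested.

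The other cytosolic enzymes that rose in empty-vector cells were led by HARS, the histidine enzyme, and KARS. HARS (chromosome 5, 140673904 to 140691862, minus strand) was at 67.6, 64.0 and 61.0 TPM under sgRosa and at 93.4, 91.9 and 91.2 TPM under sgPOU2F3. These values were tight within each group and far apart between them, with a difference of 0.52 ± 0.08 (limma adjusted p = 7.89e-05 in the 16 libraries, 0.222 in all 18). KARS went from 234, 233 and 227 TPM to 301, 287 and 311 TPM, a difference of 0.37 ± 0.08 (limma adjusted p = 0.000849, and 0.200 in all 18). FARSB, the partner subunit of FARSA, stood at 0.33 and RARS (arginine) at 0.25. DARS and QARS (glutamine) fell by 0.34 and 0.29 on the log2 scale in the same libraries.

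**Figure D2:**
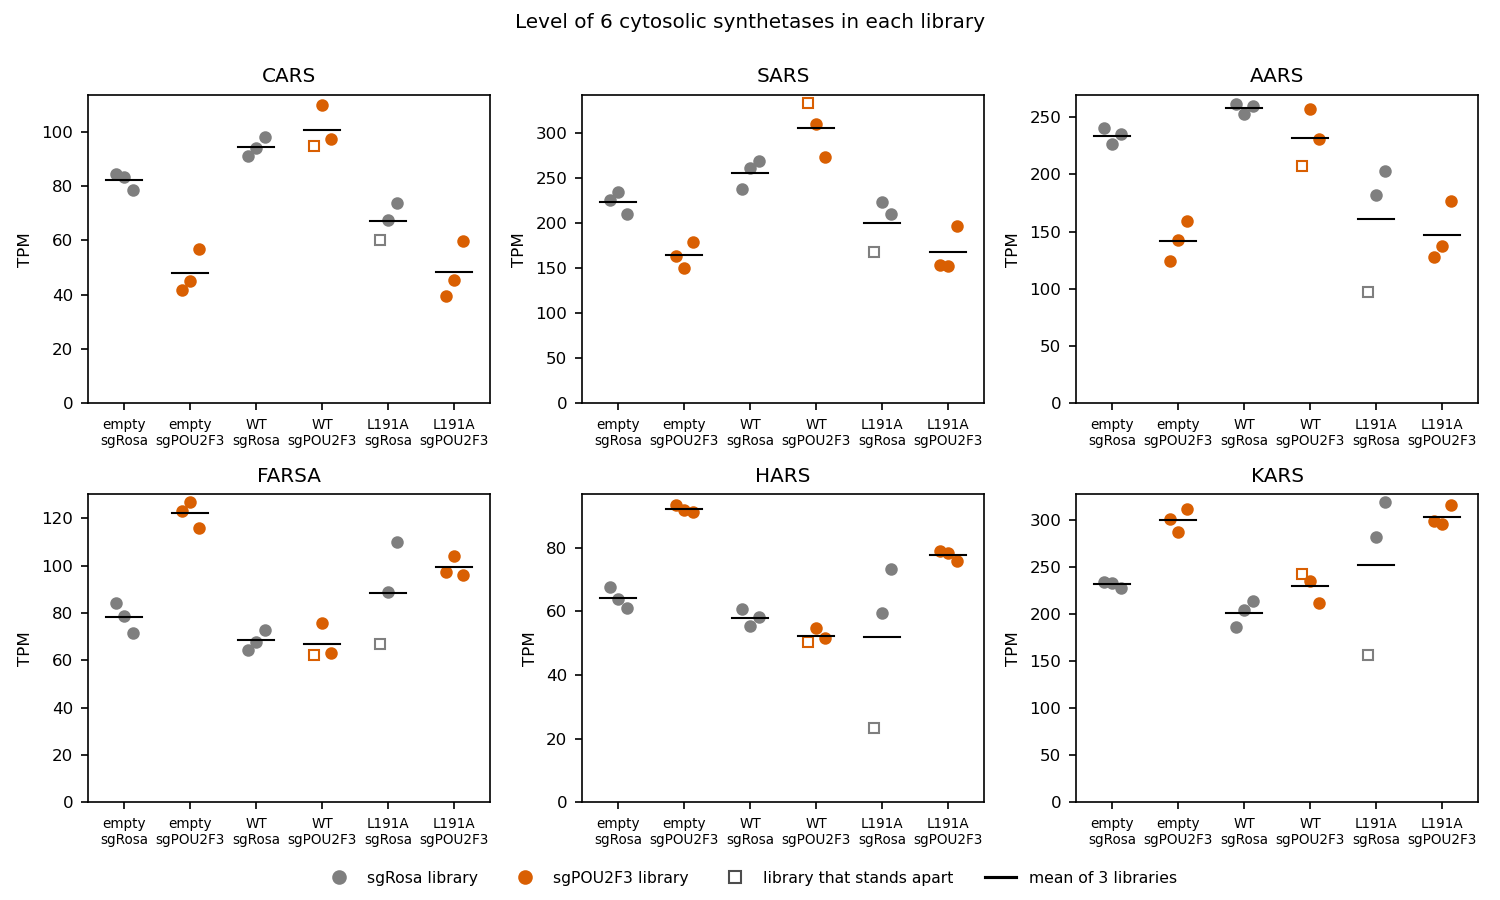
TPM of CARS, SARS, AARS, FARSA, HARS and KARS in each of the 18 libraries (y axis, linear from 0), by line and guide, with the mean of 3 libraries as a bar and the pair of libraries that stand apart as open squares. CARS is at 41.8 to 56.9 TPM in empty-vector cells and 39.6 to 59.9 TPM in L191A cells under sgPOU2F3, against 94.6 to 110 TPM in WT cells.

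The sums show the same split without a gene-by-gene call. The summed level of the named ATF4 targets was 2470 ± 45.7 TPM under sgRosa and 2000 ± 153 TPM under sgPOU2F3 in empty-vector cells, and that of the other cytosolic enzymes 703 ± 31.2 and 868 ± 25.2 TPM. Their ratio was 3.42 to 3.64 in the controls and 2.12 to 2.42 under sgPOU2F3, with no overlap. The mitochondrial sum was 681 ± 21.1 and 722 ± 40.6 TPM, and the ratio of cytosolic to mitochondrial sums was 4.66 ± 0.240 and 3.98 ± 0.241.

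**Figure D3:**
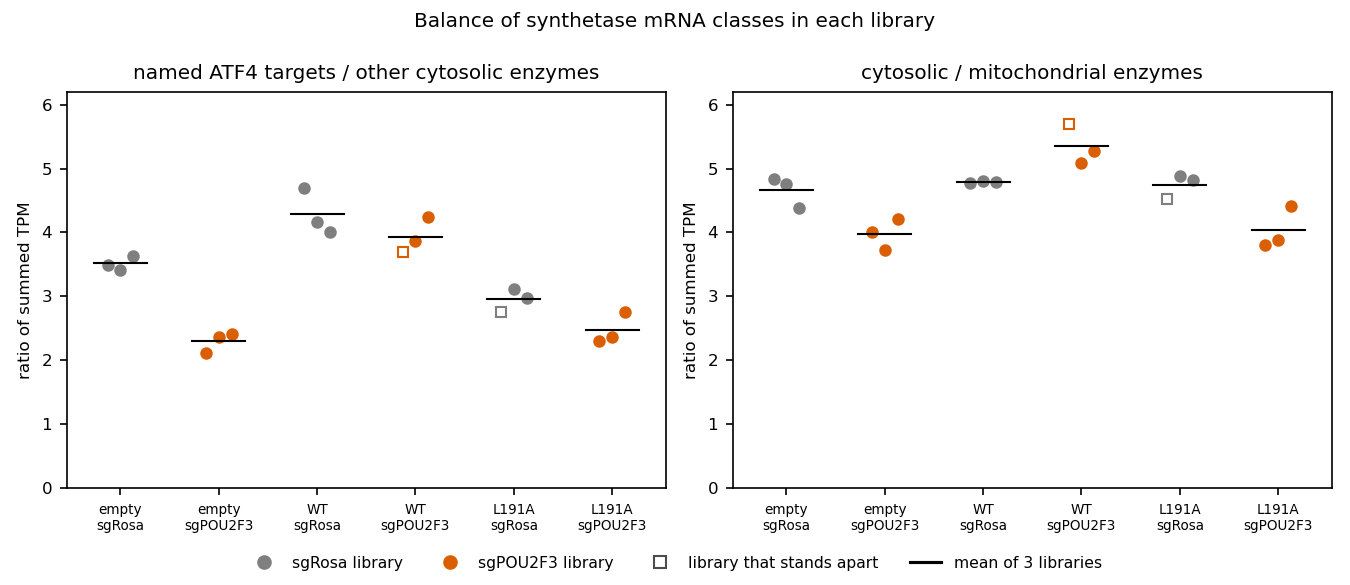
Ratio of summed TPM of the named ATF4 targets to the other cytosolic enzymes (left) and of cytosolic to mitochondrial enzymes (right) in each library (y axes, linear from 0), with the mean of 3 libraries as a bar. The left ratio is 2.12 to 2.42 in empty-vector and 2.30 to 2.75 in L191A libraries under sgPOU2F3, and 3.70 to 4.24 in WT libraries.

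Set against its mitochondrial counterpart, the cytosolic enzyme had the lower difference in 12 of 17 pairs in empty-vector cells, with a median gap of −0.25. The widest gaps were for cysteine, with CARS at −0.77 and CARS2 at 0.21, alanine, with AARS at −0.72 and AARS2 at 0.19, and leucine, with LARS at −0.43 and LARS2 at 0.33. The 5 pairs that ran the other way were those of FARSA, FARSB, HARS, RARS and VARS. The median cytosolic difference less the median mitochondrial one was −0.28, and −0.39 to −0.20 over the alternatives, with no test of it. The other way of taking it, the cytosolic median level less the mitochondrial one within each library, gave 1.72 ± 0.0954 under sgRosa and 1.77 ± 0.153 under sgPOU2F3 on the log2(TPM + 1) scale, which overlapped and differed in the opposite direction. Pooled over all 6 groups, the spread of this level gap between replicates was 0.23. It was widest in the groups with a skewed library (SD 0.302 and 0.424) and is not the error of the −0.28. HARS and HARS2 sit head to head on chromosome 5, HARS2 at 140691426 to 140699318 on the plus strand, and their annotated starts overlap. HARS2 was at 54.2, 51.9 and 53.5 TPM under sgRosa and at 57.7, 55.3 and 57.0 TPM under sgPOU2F3, a difference of 0.09 that was not called while HARS was at 0.52.

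MARS2, the mitochondrial methionine enzyme, rose from 17.4, 15.3 and 18.8 TPM to 20.8, 25.6 and 24.2 TPM in the 16 libraries (0.43 ± 0.11, limma adjusted p = 0.00425). LARS2 and SARS2 (serine) passed with adjusted p of 0.0437 and 0.0473, and the LARS2 groups overlapped. The 12 mitochondrial members that were not called ranged from −0.17 for EARS2 (glutamate) to 0.21 for CARS2. IARS2, the most abundant of them, was at 0.04.

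**Figure D4:**
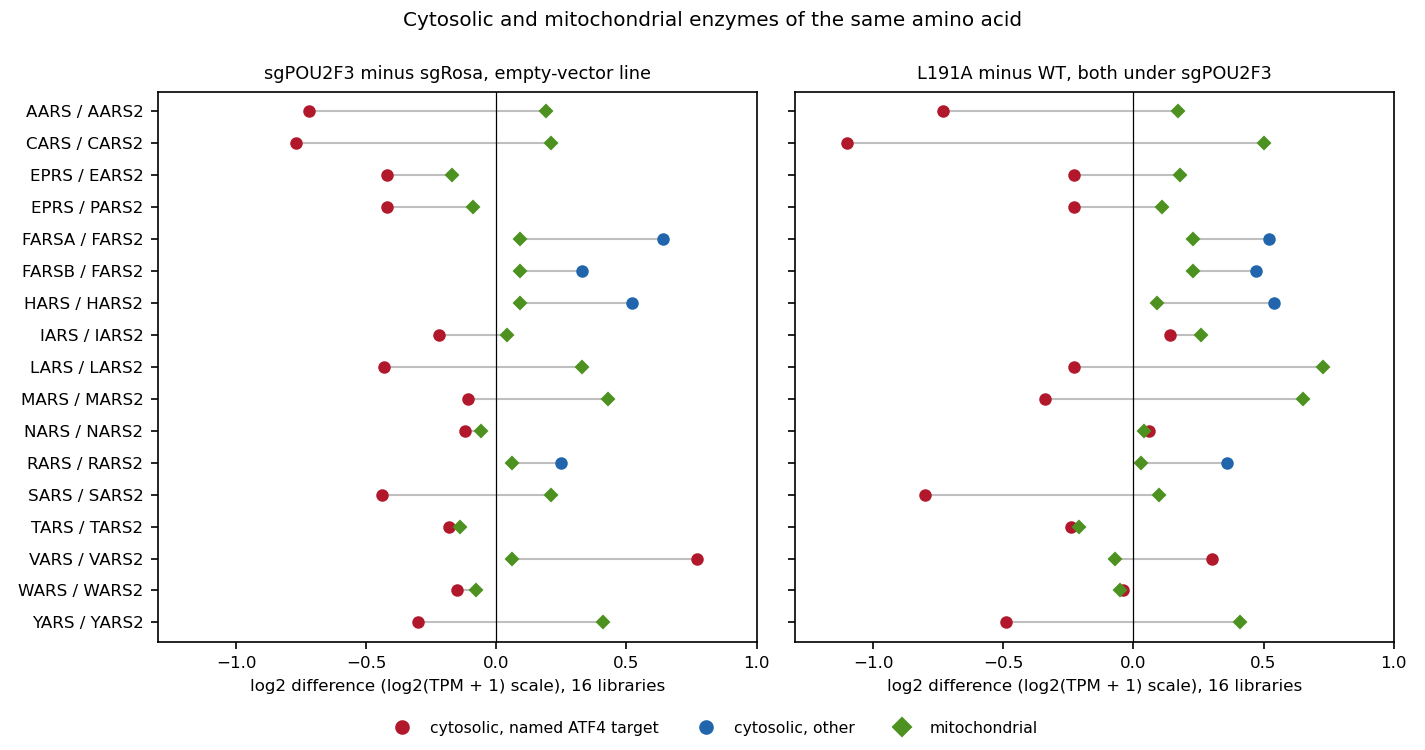
Log2 difference (x axis, log2(TPM + 1) scale, 16 libraries) of the cytosolic enzyme (circle) and the mitochondrial enzyme (diamond) for the same amino acid, in the empty-vector line (left) and for L191A against WT under sgPOU2F3 (right). The cytosolic circle lies left of the diamond in 12 of 17 pairs on the left and in 10 of 17 on the right.

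In the line with the WT cDNA, no synthetase passed limma's test in the 18 libraries, where 6.81% of all genes did (1.56% higher, 5.25% lower) and 5 members had an unadjusted p under 0.05. The medians were −0.04 for the named ATF4 targets, 0.11 for the other cytosolic enzymes and −0.17 for the mitochondrial ones, against −0.42 for all genes. That last median moves to −0.02 with median-ratio scaling, which lifts the class medians to 0.41, 0.55 and 0.23, so a direction for the family against 0 depends on the scaling in this line. It calls 9 members higher and 0 lower, and quantile normalization 10 and 1. CARS was at 91.2, 93.9 and 98.2 TPM under sgRosa and at 94.6, 110 and 97.4 TPM under sgPOU2F3, with overlap (0.09 ± 0.16). SARS was at 238, 261 and 269 TPM and then at 333, 310 and 273 TPM, apart but not called (limma adjusted p = 0.176). AARS was at 261, 253 and 260 TPM and then at 207, 257 and 231 TPM. The AARS values overlapped, as did those of FARSA, at 64.5, 67.9 and 72.7 TPM against 62.3, 75.7 and 63.1 TPM. With WT sgPOU2F3 replicate 1 and L191A sgRosa replicate 1 left out, NARS (0.27 ± 0.09, limma adjusted p = 0.0271) and TARS (0.29 ± 0.10, 0.0391) rose and AARS2 (−0.47 ± 0.16, 0.0336) and VARS2, the mitochondrial valine enzyme (−0.44 ± 0.15, 0.0328), fell. These 4 members compare with 36.1% of all genes (5.69% higher, 30.4% lower).

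In L191A cells no synthetase passed limma's test in the 18 libraries either, where 5.99% of all genes did (5.43% higher, 0.566% lower) and 8 members had an unadjusted p under 0.05. The control group there holds the most skewed library, in which HARS, for example, was at 23.4 TPM, against 59.6 and 73.3 TPM in the other sgRosa libraries. Without that pair, CARS, GARS, SARS and YARS fell and no member rose, against 10.7% of all genes called (7.35% higher, 3.33% lower). CARS was at 67.5 and 73.7 TPM in the remaining controls and at 39.6, 45.5 and 59.9 TPM under sgPOU2F3 (−0.56 ± 0.15, limma adjusted p = 0.0196). GARS went from 372 and 442 TPM to 268, 266 and 342 TPM (−0.48 ± 0.14, 0.0374), YARS from 185 and 204 TPM to 146, 138 and 164 TPM (−0.38 ± 0.10, 0.0227), and SARS from 223 and 210 TPM to 154, 152 and 197 TPM (−0.37 ± 0.11, 0.0458). None of the 4 overlapped between groups, nor did 16 of the 36 members in all, against 47.3% of all genes. All 13 named ATF4 targets were below 0 in the 16 libraries, with a median of −0.25, while the other cytosolic enzymes had a median of 0.02 and the mitochondrial ones 0.07, with 0.01 for all genes. In the 18 libraries the medians were 0.07, 0.25 and 0.37 and that of all genes 0.33, so the sign of the class turns with the skewed library and only its place below the other classes does not. Median-ratio scaling of all 18 gave −0.38, −0.20 and −0.06.

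Whether an effect differed between lines was tested directly. Between WT and empty-vector cells the sgPOU2F3 effect differed for 3 of 36 members, against 6.99% of all genes (1.71% higher, 5.27% lower). It was higher in WT cells for CARS by 0.86 ± 0.22 (limma adjusted p = 0.0263) and SARS by 0.69 ± 0.19 (0.0415), and lower for VARS, at −1.47 ± 0.43 (0.0496). The CARS difference missed the threshold without any one of 7 of the 12 libraries (adjusted p up to 0.0741), and those of SARS and VARS without any but WT sgPOU2F3 replicate 3 (up to 0.119 and 0.142). Median-ratio scaling gave 5 higher and 2 lower, and quantile normalization 10 and 3. Over the 16 libraries 14 members differed, against 26.7% of all genes (9.01% higher, 17.7% lower): 8 cytosolic members were higher in WT cells, 7 of them named ATF4 targets, and FARSA, HARS and VARS with 3 mitochondrial members (AARS2, MARS2 and SARS2) were lower. The difference between L191A and empty-vector effects passed for no member (6.08% of all genes, 4.29% higher and 1.8% lower; 4 members at unadjusted p under 0.05), and in the 16 libraries for DARS (higher, 0.40 ± 0.13) and for FARSA (−0.63 ± 0.14), KARS (−0.35 ± 0.11) and VARS (−0.79 ± 0.21), against 23.3% of all genes (15.7% higher, 7.54% lower). The CARS effects in these lines, −0.56 and −0.77, were not called different. Between L191A and WT effects no member passed in 18 libraries (11.7% of all genes, 10.7% higher and 0.972% lower; 9 members at unadjusted p under 0.05). Within the 16 libraries CARS (−0.69 ± 0.21, limma adjusted p = 0.0386), SARS (−0.56 ± 0.16, 0.0328) and TARS (−0.51 ± 0.15, 0.0304) had lower effects in L191A cells, against 13.2% of all genes (11.4% higher, 1.74% lower). Median-ratio scaling of all 18 called 12 members lower and 0 higher, against 782 and 925 of the 13066 genes. Without L191A sgRosa replicate 3 alone, 10 were called higher and 0 lower, so the sign turned with the setting. Each line's sgPOU2F3 effect enters 2 of these differences, so they are not independent.

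The rescue lines were also compared with each other under sgPOU2F3, where the cDNA is the intact source of POU2F3. POU2F3 mRNA was not alike in these lines. It was at 621, 672 and 645 TPM in L191A cells and at 1140, 1280 and 1050 TPM in WT cells. Under sgRosa it was at 142, 1050 and 831 TPM against 1700, 1880 and 1800 TPM. The L191A change and the lower POU2F3 mRNA level therefore cannot be told apart in any comparison of L191A with WT cells. CARS and SARS were lower and FARSA higher in L191A than in WT cells, 3 of 36 members against 13.5% of all genes (7.77% higher, 5.72% lower). CARS was at 39.6, 45.5 and 59.9 TPM in L191A cells and at 94.6, 110 and 97.4 TPM in WT cells, with a wide gap (−1.06 ± 0.16, 0.479-fold, limma adjusted p = 0.000213). SARS was at 154, 152 and 197 TPM against 333, 310 and 273 TPM (−0.86 ± 0.14, 0.549-fold, limma adjusted p = 0.000439). Median-ratio scaling gave 4 members higher and 5 lower, and quantile normalization 5 and 10. CARS and SARS passed in all 17 alternatives, at −1.23 to −0.93 and −1.02 to −0.77. FARSA was at 97.4, 104 and 96.2 TPM against 62.3, 75.7 and 63.1 TPM, without overlap, as for 46.3% of all genes (0.56 ± 0.15, limma adjusted p = 0.0228). It missed the threshold without any one of 5 of the 6 libraries, all but WT replicate 2 (adjusted p 0.0572 to 0.0905), and with median-ratio scaling (0.41, 0.151) or the length trend removed (0.65, 0.0851).

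Between these groups 17 members differed in the 16 libraries, against 37.4% of all genes (18.5% higher, 18.9% lower). Of the named ATF4 targets 6 were lower (AARS, CARS, GARS, MARS, SARS and YARS) and none higher, with a median of −0.24. Of the other cytosolic enzymes 5 were higher (FARSA, FARSB, HARS, KARS and RARS) and QARS lower, with a median of 0.44. Of the mitochondrial enzymes 5 were higher (CARS2, IARS2, LARS2, MARS2 and YARS2), with a median of 0.14. The median of all genes was −0.01. Median-ratio scaling of all 18 libraries gave class medians of −0.44, 0.23 and 0.07. Among the 8 smallest p were AARS at −0.73 ± 0.12 (limma adjusted p = 0.000241), HARS at 0.54 ± 0.09 (0.000231), KARS at 0.44 ± 0.08 (0.000744), MARS2 at 0.65 ± 0.12 (0.000748) and LARS2 at 0.73 ± 0.15 (0.00109). The HARS libraries read 78.9, 78.4 and 75.8 TPM in L191A cells and 54.8 and 51.7 TPM in the 2 WT libraries kept.

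Under the control guide, WT cells differed from empty-vector cells for HARS2 alone in the 18 libraries, at 39.8, 41.6 and 39.9 TPM against 54.2, 51.9 and 53.5 TPM (−0.39 ± 0.10, limma adjusted p = 0.0300), against 7.2% of all genes (4.57% higher, 2.63% lower). The groups did not overlap, and nor did those of 43.5% of all genes. The HARS2 call was lost without any 1 of the 6 libraries (adjusted p 0.0788 to 0.120) and with median-ratio scaling (0.235). The 16 libraries gave 10 members, 9 of them lower in WT cells and VARS2 higher, against 34.3% of all genes (20.9% higher, 13.5% lower). FARSB had the largest of the lower values, at 104, 104 and 110 TPM against 155, 156 and 131 TPM (−0.47 ± 0.09, limma adjusted p = 0.00136).

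L191A cells under sgRosa gave 6 lower members in the 18 libraries (AARS, LARS, QARS, HARS2, PARS2 and TARS2), against 36% of all genes (4.94% higher, 31% lower), whose median was −0.56. Median-ratio scaling gave 7 higher and 0 lower instead, with AARS, LARS, HARS2 and TARS2 above 0, and quantile normalization 5 higher and 1 lower, so no direction for the family is given from that fit. Without the skewed pair FARSA, KARS, MARS2 and YARS2 were higher and LARS, QARS, HARS2 and TARS2 lower, against 39.2% of all genes (9.3% higher, 29.9% lower). KARS was at 281 and 319 TPM against 234, 233 and 227 TPM in empty-vector cells (0.37 ± 0.08, limma adjusted p = 0.00349), and QARS at 57.9 and 59.4 TPM against 79.4, 78.8 and 75.3 TPM (−0.40 ± 0.09, 0.00367). The ratio of the named ATF4 targets to the other cytosolic enzymes under sgRosa was 3.52 ± 0.112 in empty-vector, 4.29 ± 0.363 in WT and 2.95 ± 0.181 in L191A cells.

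The cytosolic enzymes EPRS, IARS, LARS, MARS, QARS, RARS, KARS and DARS (8 in all) are held in the multi-tRNA synthetase complex by the scaffold proteins AIMP1, AIMP2 and EEF1E1. In empty-vector cells none of the 8 passed in 18 libraries, and in the 16 libraries 2 rose and 5 fell, against 19.1% and 32.7% of all genes. The scaffolds had a median of 0.44. AIMP2 rose from 98, 93.1 and 79.5 TPM to 143, 130 and 140 TPM (0.61 ± 0.12, limma adjusted p = 0.00247), and EEF1E1 from 154, 175 and 134 TPM to 227, 184 and 215 TPM (0.44 ± 0.14, 0.0428), while AIMP1 was at 0.05. In L191A against WT cells under sgPOU2F3 AIMP2 was higher by 0.38 ± 0.12 (limma adjusted p = 0.0483).

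Of 5 partners of mitochondrial charging that were tested, only TUFM, the mitochondrial elongation factor that receives charged tRNA, was called in empty-vector cells in the 18 libraries, at 293, 277 and 255 TPM against 384, 362 and 365 TPM (0.43 ± 0.12, limma adjusted p = 0.0232). Its cytosolic counterpart EEF1A1 was lower, at 7390, 7830 and 7460 TPM against 5700, 4700 and 5720 TPM (−0.50 ± 0.14, 0.0244), the only 1 of 3 genes of tRNA maturation and delivery that passed. The difference in EEF1A1 between WT and empty-vector effects was 0.91 ± 0.20 (limma adjusted p = 0.0117) in the 18 libraries. In WT cells it was at 6330, 8330 and 8620 TPM and then at 11900, 9860 and 9060 TPM. The 11900 TPM is in WT sgPOU2F3 replicate 1, a skewed library with a high ribosomal protein share. The 4700 TPM is in empty-vector sgPOU2F3 replicate 2, where that share was lowest (15.57%). The part of that share in the EEF1A1 values was not tested. None of the 2 trans-editing genes and the 1 selenocysteine gene tested passed in 18 libraries.

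ATF4 and 29 other genes known as its targets or regulators outside the family gave 2 higher and 7 lower in empty-vector cells (median −0.27), 0 and 1 in WT cells (−0.27), and 0 and 4 in L191A cells (−0.08), in the 18 libraries. All genes called higher and lower were 7.94% and 9.51%, 1.56% and 5.25%, and 5.43% and 0.566% in these lines. The medians of all genes, against which those of the list are to be read, were −0.13, −0.42 and 0.33. Over the 16 libraries the 30 genes gave 5 and 13 in empty-vector cells, against 19.1% and 32.7% of all genes, 2 and 5 in WT cells, against 5.69% and 30.4%, and 1 and 12 in L191A cells, against 7.35% and 3.33%. ATF4 mRNA was at 449, 464 and 416 TPM under sgRosa and at 289, 277 and 352 TPM under sgPOU2F3 in empty-vector cells, with no overlap (−0.54 ± 0.14, limma adjusted p = 0.0151). In L191A cells it went from 453, 423 and 438 TPM to 264, 283 and 384 TPM (−0.51 ± 0.14, 0.0412), and in WT cells it was at 400, 435 and 493 TPM and then at 592, 554 and 495 TPM. The ATF4 effect was higher in WT than in empty-vector cells by 0.85 ± 0.20 (limma adjusted p = 0.0168) and lower in L191A than in WT cells (−0.82 ± 0.20, 0.0224). ATF4 is regulated largely at translation, so its mRNA is not a measure of its activity.

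The 2 smallest p among these genes in empty-vector cells were those of PCK2, the mitochondrial phosphoenolpyruvate carboxykinase, and PHGDH, the first enzyme of serine synthesis. PCK2 went from 62.8, 62.1 and 61.3 TPM to 23.4, 28.1 and 31.8 TPM (−1.14 ± 0.16, limma adjusted p = 0.000112), and PHGDH from 239, 259 and 212 TPM to 91.8, 93.3 and 118 TPM (−1.22 ± 0.19, 0.000254). In L191A against WT cells under sgPOU2F3 2 of the 30 were higher and 10 lower, against 7.77% and 5.72% of all genes, with a median of −0.43. PCK2 was at 20.1, 22.4 and 29.4 TPM against 73.6, 73.9 and 73.4 TPM (−1.60 ± 0.16, limma adjusted p = 4.5e-06), and DDIT3, the stress factor CHOP, at 27.3, 29.5 and 36.7 TPM against 84.3, 77.5 and 69.5 TPM (−1.29 ± 0.17, 9.83e-05). Under sgRosa 3 were higher and 0 lower in WT than in empty-vector cells, against 4.57% and 2.63% of all genes. L191A cells under sgRosa had 1 higher and 8 lower of the 30, against 4.94% and 31% of all genes, so the lower count there does not stand above the background.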

How the data were processed

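Poly(A) RNA of 18 NCI-H211 libraries was sequenced from TruSeq libraries, per the labels' protocols. The authors deposited TPM, made with kallisto and hg38 per the submitters' processing notes; for the kallisto version, transcript set and strandedness, nothing is given in the sources used here. Each column sums to the same total, so depth and counting error are unknown. Of 19875 entries 131 named no gene (27 dates, 104 fragments of descriptions; 1.64% to 2.42% of TPM) and were left out. The 13066 genes whose mean reached 1 TPM were put on the log2(TPM + 1) scale, which understates how much low genes change, and fitted with limma 3.58.1 (R 4.3.3), 1 coefficient per group over 18 libraries with a variance trend. Each of 9 contrasts had a two-sided test, with p-values adjusted by Benjamini-Hochberg over all genes at 0.05. The fit was repeated in 16 libraries, without L191A sgRosa replicate 1 and WT sgPOU2F3 replicate 1.

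The members, classes and lists (complex scaffolds, mitochondrial partners, selenocysteine, trans-editing, tRNA maturation and delivery, ATF4 pathway, tuft, neuroendocrine, mesenchymal, lymphoid and myeloid) were chosen with earlier results of these data known, so none is independent support. All members that passed in the 18 libraries were named. In the 16 libraries not all were named for the WT less empty-vector effect and for WT against empty vector under sgRosa. The pairs of 1 amino acid were named too, with up to 2 genes per related list and ATF4 itself. Further members of a class were named after their values were seen. QRSL1, SEPSECS, PRORSD1P, DTD2, ASNS and MTHFD2 were not analysed here. Alternatives were pseudocounts of 0.1 and 5, no filter or a mean of 5 TPM, no variance trend, a fit of only the groups compared, a replicate block, scaling by median ratios, quantile normalization, a lowess (span 0.3) on transcript length subtracted per library, and each replicate left out. Coordinates are from GENCODE (GRCh38, the assembly of hg38) and promoter windows from RefSeq.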

Additional observations from a re-analysis of the deposited data

Results flagged for a closer look

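The sgPOU2F3 effect differed between the WT and the empty-vector line, by limma's test of the difference itself, for CARS (0.86 on the log2 scale, adjusted p = 0.0263), SARS (0.69, 0.0415) and VARS (−1.47, 0.0496). CARS and SARS were lower under sgPOU2F3 in empty-vector cells and not in WT cells, and VARS stood at 119, 181 and 131 TPM against 87.5, 74.2 and 86.7 TPM in empty-vector cells and at 36.1, 68.1 and 84.5 TPM against 108, 88.8 and 95.2 TPM in WT cells. The lowest VARS value, 36.1 TPM, is in WT sgPOU2F3 replicate 1, which stands apart. Without it the VARS difference was −1.12 (adjusted p = 0.117), and in the 16 libraries −1.12 (0.00126).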

How the results depend on the processing

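The number of synthetases called changed with the processing. From 5 in empty-vector cells it moved to 13 with quantile normalization, 3 with no variance trend, 16 with only the groups compared, 20 in the 16 libraries and 2 with the length trend removed. From 0 in WT cells it moved to 9 with median-ratio scaling, 11 with quantile normalization and 4 in the 16 libraries. In L191A cells it moved from 0 to 3, 1 and 4 by these settings, all of them lower. For the WT less empty-vector effect, 3 became 7 and 13 under these scalings, 1 with no variance trend, 12 with only the groups compared, 14 in the 16 libraries and 1 with the length trend removed. The L191A less empty-vector effect went from 0 to 2, 2 and 4, and the L191A less WT effect from 0 to 12, 6 and 3, by median-ratio scaling, quantile normalization and the 16 libraries. All these calls of the L191A less WT effect were lower. L191A against WT under sgPOU2F3 went from 3 to 9, 15, 15 and 17 with median-ratio scaling, quantile normalization, only the groups compared and the 16 libraries. WT against empty vector under sgRosa went from 1 to 0, 3, 6 and 10 by those settings and to 0 with the length trend removed, and L191A against empty vector from 6 to 0 with only the groups compared. Leaving out 1 library gave 2 to 3 calls in empty-vector, 0 to 1 in WT and 0 to 6 in L191A cells. The 6 came without L191A sgRosa replicate 3 and were all higher. For the differences of effects, in the order above, it gave 0 to 3, 0 to 1 and 0 to 10 calls. The 10 came without the same library and were all higher, so the sign of the L191A less WT calls turned with the setting. L191A against WT under sgPOU2F3 gave 2 to 3 calls. Under sgRosa, WT against empty vector gave 0 and L191A against empty vector 1 to 20. The 20 came without L191A sgRosa replicate 3 and were all lower. With the replicate block the L191A less WT effect gave 1 call and WT against empty vector under sgRosa 0, and the other counts stayed within 1.5 times. With it YARS2 in empty-vector cells (adjusted p = 0.0652) and SARS in the WT less empty-vector effect (0.0566) missed the threshold. Deviations from the group mean correlated at −0.58 to 0.41 between libraries of the same number. Libraries of different numbers were not compared, so whether the numbers pair them is not settled. Against empty vector under sgRosa the L191A difference turned to 0.04 for AARS, 0.04 for LARS, 0.33 for HARS2 and 0.05 for TARS2 with median-ratio scaling and to 0.11 for HARS2 and 0.11 for PARS2 with quantile normalization. The median cytosolic less mitochondrial difference was −0.39 to −0.20 in empty-vector, 0 to 0.27 in WT and −0.26 to −0.05 in L191A cells, and −0.44 to −0.27 for L191A against WT under sgPOU2F3. The causes were not tested.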
